A study of Mus musculus with 2 samples.

Results

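The S6 kinases, the 4E-BPs and their closest translational partners are the route by which the growth kinase complex mTORC1 reaches protein synthesis. The 8 genes described here were chosen by name from the 54532 genes of the deposited table. They are the eIF4E-binding protein genes Eif4ebp1, Eif4ebp2 and Eif4ebp3, the S6 kinase genes Rps6kb1 and Rps6kb2, and Pdcd4, Eef2k and Larp1. Transcripts were counted by RNA sequencing of brown adipose tissue, fat that burns fuel for heat, from the interscapular depot of C57BL/6J mice aged 1 month and labelled male. The rheb BAD KO library came from the pooled tissue of 3 mice with 2 floxed Rheb alleles and a Cre recombinase under the Ucp1 promoter, which is active in brown adipocytes. The control library came from the pooled tissue of 3 littermates labelled control, described in the series title as carrying the floxed Rheb alleles. Rheb is the small GTPase that switches mTORC1 on, and the design asks which transcripts differ when it is deleted in brown adipocytes.

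When mTORC1 is active it phosphorylates the 4E-BPs, small proteins that otherwise hold the cap-binding factor eIF4E and keep it from recruiting ribosomes. It also phosphorylates the S6 kinases, which in turn act on ribosomal protein S6, on the initiation repressor Pdcd4 and on the elongation factor kinase Eef2k. Larp1 binds the start of mRNAs that begin with a run of pyrimidines (TOP mRNAs, mostly those of ribosomal proteins and elongation factors) and links their translation to mTORC1. These controls act on proteins, whereas the values below are transcript levels and carry no measure of phosphorylation or translation.

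Each group was 1 library, so no difference below has a replicate error or a test. The intervals given are 95% exact binomial (Clopper-Pearson) intervals and cover counting error only, and reads that are PCR copies are not independent molecules. The rheb BAD KO library held 23699316 counts and the control library 21855229 counts. Counts were put on a common library size (CPM) with TMM factors, which set the bulk of genes level between the libraries. A gene was called higher or lower where its ratio of scaled counts, rheb BAD KO over control, was at least 1.5-fold and its interval excluded 1.

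Some features of the libraries bear on every comparison. Rheb was lower in the rheb BAD KO library, with 568 counts against 1037 in the control library, a ratio of 0.553 (0.499 to 0.613), counted over the whole gene and over all cells of the tissue. Both libraries are labelled male, but Xist, the RNA that silences an X chromosome in female cells, had 4 counts in the rheb BAD KO library and 7452 in the control library. The Y-linked genes Ddx3y, Eif2s3y and Kdm5d had 1484, 2653 and 259 counts in the rheb BAD KO library and 0 in the control library. Another Y-linked gene, Uty, had 431 counts in the rheb BAD KO library and 1 in the control library. Genotype and sex-linked expression therefore cannot be told apart here. All 11 measured skeletal muscle markers were lower in the rheb BAD KO library, at a summed 303.8 CPM against 2913 CPM in the control library, while a 12th, Tnnc2, was at 0 counts in both. Macrophage markers were higher in 6 of 7 cases (a summed 108 CPM in the rheb BAD KO library against 47.0 CPM in the control library), and all 5 erythroid markers were higher (5823 CPM in rheb BAD KO, 2263 CPM in control). Fibroblast markers were higher in 3 of 6 cases (362 CPM in rheb BAD KO, 225 CPM in control) and endothelial markers in 1 of 5 (439 CPM in rheb BAD KO, 495 CPM in control). Of 5 neutrophil markers, 2 were measured and both were higher (a summed 33.0 CPM in rheb BAD KO and 3.45 CPM in control over the list). Of the 8 brown adipocyte markers, 1 was higher (Pparg, a ratio of 2.04), 1 was lower (Adipoq, 0.567) and 6 lay in between. Their summed level was 11770 CPM in the rheb BAD KO library and 12538 CPM in the control library, of which Fabp4 alone held 6550 CPM in rheb BAD KO and 7238 CPM in control. In whole tissue, fewer cells of a type and less RNA per cell cannot be told apart.

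Among the members, only Pdcd4 was searched for a microRNA match. Its mRNA is a textbook target of the microRNA miR-21, and its 3′ UTR holds a match to bases 2 to 8 of mmu-miR-21a-5p, the seed, which is shown here in capitals in both sequences. The microRNA is credited to RefSeq (GRCm38.p6, chr11:86584120-86584141, minus strand) and the Pdcd4 stretch to GENCODE M21 transcripts (GRCm38, chr19:53929417-53929439, plus strand). Mature microRNAs are not measured in these libraries.
mmu-miR-21a-5p: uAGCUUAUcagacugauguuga
Pdcd4 3′ UTR: agtgtgggtgttctgATAAGCTa

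Of the RefSeq promoter windows (GRCm38.p6, 250 bases before to 50 after a start), none was found for Eif4ebp1 or Rps6kb2. Any window of Eif4ebp3 was left out of the results, so the matches below say nothing of its promoter. The windows used were those of 5 of the 8 genes, namely Eif4ebp2, Rps6kb1, Pdcd4, Eef2k and Larp1. They were searched on both strands for CACGTG (the E-box read by TFEB, TFE3 and others), TGATGNAA (the composite element of ATF4), TGACGTCA (the cAMP response element), TCACNCCAC (a sterol response element), GCGCATGC (NRF1) and CCGGAAG (ETS factors). The 250 upstream bases of Eif4ebp2, the 4E-BP gene whose window was used, are shown with Pdcd4 and Rps6kb1. The latter share a motif. Their ratios were 0.582 (Pdcd4, called lower) and 1.30 (Rps6kb1, in between), and a link to the motif was not tested. Capitals mark every match.
Eif4ebp2, chr10:61452670-61452919, minus strand: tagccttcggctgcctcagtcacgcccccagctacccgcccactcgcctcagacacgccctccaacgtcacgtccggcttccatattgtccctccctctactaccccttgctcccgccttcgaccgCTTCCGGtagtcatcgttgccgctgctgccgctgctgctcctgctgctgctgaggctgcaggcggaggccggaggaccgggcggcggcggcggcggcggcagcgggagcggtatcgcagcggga
Pdcd4, chr19:53903101-53903350, plus strand: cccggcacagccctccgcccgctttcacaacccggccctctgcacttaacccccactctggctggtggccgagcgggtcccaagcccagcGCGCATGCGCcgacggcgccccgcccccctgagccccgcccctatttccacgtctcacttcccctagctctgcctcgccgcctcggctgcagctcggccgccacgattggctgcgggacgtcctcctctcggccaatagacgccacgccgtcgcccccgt
Rps6kb1, chr11:86544808-86545057, minus strand: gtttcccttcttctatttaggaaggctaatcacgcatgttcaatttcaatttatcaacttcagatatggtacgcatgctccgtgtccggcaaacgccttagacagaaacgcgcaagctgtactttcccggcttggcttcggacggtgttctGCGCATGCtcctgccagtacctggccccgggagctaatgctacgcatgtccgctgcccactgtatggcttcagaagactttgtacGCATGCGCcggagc

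The GCGCATGC motif matched 2 times in the Rps6kb1 window and 2 times, with overlap, in this Pdcd4 window, while 2.71% of all 32851 promoter windows of that length held it. CCGGAAG matched once in the Eif4ebp2 window and in 8.86% of all windows. Among the member windows used, the E-box matched once, in 1 of the 3 windows of Eef2k, and it matched in 7.15% of all windows. The ATF4 element matched once among the windows used, in another Eef2k window, and in 3.97% of all windows. Neither TGACGTCA (1.79%) nor TCACNCCAC (1.24%) matched in the member windows used. The 1 Larp1 window and the other Pdcd4 window held no match. A match describes letters only, and binding was not measured.

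Of the 8 genes, 7 passed the filter of a mean of 1 CPM over both libraries, and each of these was above 1 CPM in both. Among the 7, 3 were lower (Eif4ebp1, Eif4ebp2 and Pdcd4), 1 was higher (Rps6kb2) and 3 lay in between (Rps6kb1, Larp1 and Eef2k). Over all 12973 genes that passed, 22.9% were called lower and 22.9% higher, so calls of this size were common between these libraries. With plain total-count scaling, 2371 genes were called higher and 3695 lower, in place of 2968 and 2976, and the 8 members kept their calls. The median log2 ratio of the 7 members was -0.31, beside -0.003 over all genes.

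**Figure D1:**
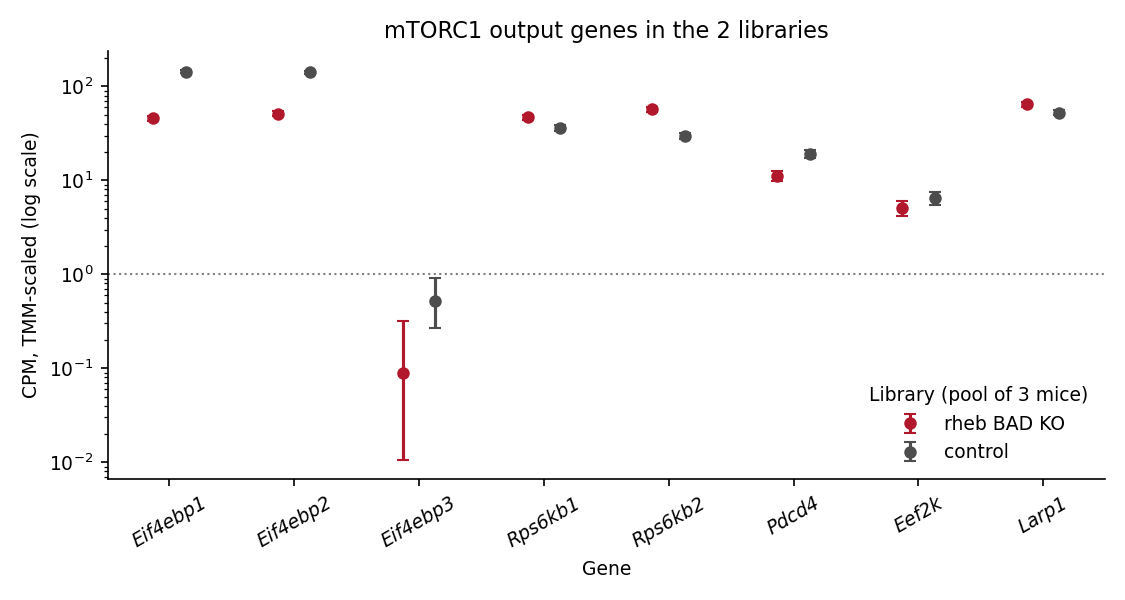
TMM-scaled CPM on a log axis for the 8 genes, rheb BAD KO in red and control in grey, 1 library each, with bars for 95% exact Poisson counting intervals and a dotted line at 1 CPM. Eif4ebp1 and Eif4ebp2 stand at 45.7 and 51.1 CPM in the rheb BAD KO library, against 144 and 142 CPM in the control library, and Eif4ebp3 lies below 1 CPM in both.

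The 4E-BP transcripts were about a factor of 3 lower in the rheb BAD KO library. Eif4ebp1 (ENSMUSG00000031490, mm10 chr8:27260329-27276674, plus strand), which encodes the founding 4E-BP and the main one of adipose tissue, had 1035 counts (45.7 CPM) in the rheb BAD KO library and 3288 counts (144 CPM) in the control library. It was 3.15-fold lower (2.93 to 3.38), and 4.74% of the 12973 genes had a lower ratio. Eif4ebp2 (ENSMUSG00000020091, chr10:61428491-61452661, minus strand), the form best known from brain, had 1157 counts (51.1 CPM) in the rheb BAD KO library and 3243 counts (142 CPM) in the control library. It was 2.78-fold lower (2.59 to 2.97), with 5.83% of genes at a lower ratio. Counted from the highest level, Eif4ebp1 ranked 2642 of all genes in the rheb BAD KO library and 700 in the control library, and Eif4ebp2 ranked 2354 in the rheb BAD KO library and 717 in the control library.

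Both 4E-BP genes moved nearly in parallel. Within the rheb BAD KO library there were 2.36 Eif4ebp1 counts per kilobase for each Eif4ebp2 count per kilobase, against 2.67 in the control library. The ratio of these ratios, which needs no scaling between libraries, was 0.882 (0.800 to 0.973). No annotated exon of either gene is shared with another gene of the table, so no shared exon mixes their counts with those of a neighbour. Mixing by other routes, such as reads that map to several places, was not tested. Skeletal muscle, whose markers were lower in the rheb BAD KO library, also makes 4E-BPs, and its part in these differences was not tested.

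Eif4ebp3 (ENSMUSG00000090264, chr18:36664060-36665917, plus strand), the least studied 4E-BP, was close to the limit of detection. It had 2 counts in the rheb BAD KO library and 12 in the control library, a ratio of 0.168 with a wide interval (0.0183 to 0.756), and did not pass the filter. Of its 744 exonic bases, 501 are also exons of Ankhd1 on the same strand, which leaves 243 bases of its own. Ankhd1 had 1578 counts in the rheb BAD KO library and 1007 in the control library, the opposite direction. How the authors' counting treated reads in the shared stretch is not given in the sources used here, so the level of Eif4ebp3 is uncertain.

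**Figure D2:**
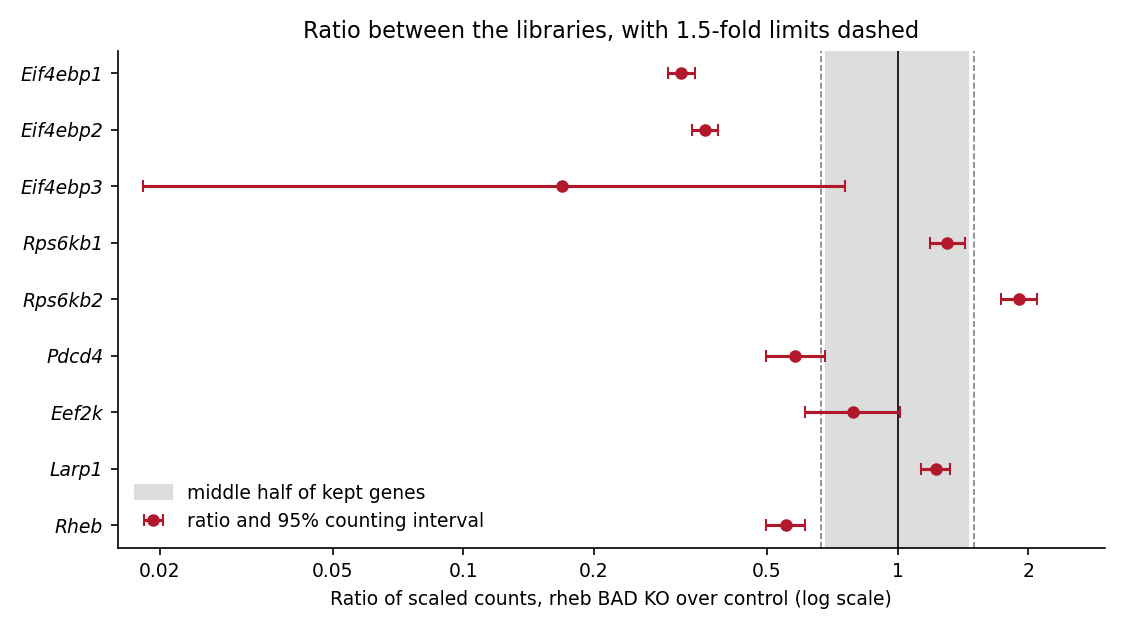
Ratio of TMM-scaled counts, rheb BAD KO over control, on a log axis for the 8 genes and Rheb, with 95% exact binomial counting intervals, dashed lines at 1.5-fold and a grey band for the middle 50% of the 12973 genes kept. The intervals of Eif4ebp1, Eif4ebp2 and Rps6kb2 lie wholly outside the dashed lines, and those of Rps6kb1 and Larp1 lie above 1 and below 1.5.

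Of the S6 kinase genes, Rps6kb2 was higher and Rps6kb1 lay in between. Rps6kb2 (ENSMUSG00000024830, chr19:4156713-4163354, minus strand), which encodes S6 kinase 2, had 1290 counts (57.0 CPM) in the rheb BAD KO library and 684 counts (29.9 CPM) in the control library. It was 1.90-fold higher (1.73 to 2.09), with 12.6% of all genes at a higher ratio. Rps6kb1 (ENSMUSG00000020516, chr11:86498871-86544805, minus strand), which encodes the better known S6 kinase 1, had 1058 counts (46.7 CPM) in the rheb BAD KO library and 821 counts (35.9 CPM) in the control library. Its ratio of 1.30 (1.19 to 1.43) excluded equal levels by counting error but stayed within the 1.5-fold limit. Within a library and with the deposited lengths, Rps6kb2 had 4.32 counts per kilobase for each one of Rps6kb1 in the rheb BAD KO library and 2.95 in the control library, a ratio of ratios of 1.46 (1.28 to 1.67).

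Neighbouring genes share little exon sequence with the S6 kinase genes. The opposite-strand gene Ptprcap, a lymphocyte gene, shares 39 of the 2445 exonic bases of Rps6kb2 and had 33 counts in the rheb BAD KO library and 19 in the control library. Rnft1, also on the opposite strand, shares 155 of the 8658 exonic bases of Rps6kb1 and had 463 and 483 counts in the rheb BAD KO and control libraries. The library kit does not mark strand, and the part of opposite-strand reads in the S6 kinase counts was not tested.

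**Figure D3:**
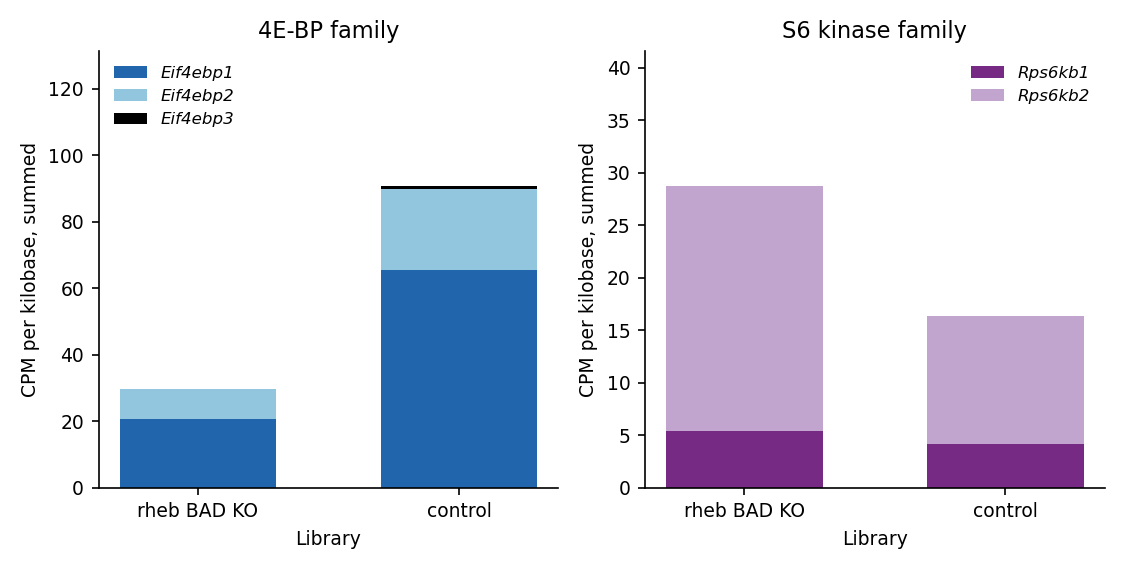
Stacked CPM per kilobase of exon, with the deposited gene lengths, for the 4E-BP genes (left) and the S6 kinase genes (right), with the rheb BAD KO library left of the control library in each panel and no error bars. The 4E-BP sum was 29.8 in the rheb BAD KO library against 90.7 in the control library, and the S6 kinase sum was 28.7 in the rheb BAD KO library against 16.4 in the control library.

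Set per kilobase of exon with the deposited lengths, the 2 families stood at different proportions in the 2 libraries. The summed 4E-BP level was 29.8 CPM per kilobase in the rheb BAD KO library and 90.7 in the control library, and the summed S6 kinase level was 28.7 in the rheb BAD KO library and 16.4 in the control library. How close the 2 sums stood in the rheb BAD KO library depends on the length taken for Rps6kb2, for which the table gives 2445 bases and GENCODE M21 5167. With the GENCODE length the S6 kinase sum was 16.4 in the rheb BAD KO library and 9.93 in the control library, while the 4E-BP sums were the same. Eif4ebp1 made up 69.9% of the 4E-BP sum in the rheb BAD KO library and 72.2% in the control library. Rps6kb2 made up 81.2% of the S6 kinase sum in the rheb BAD KO library and 74.7% in the control library, and with the GENCODE length it made up 67.1% in the rheb BAD KO library and 58.3% in the control library.

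The order of the 8 levels per kilobase also differed, here with the deposited lengths. In the rheb BAD KO library Rps6kb2 stood first at 23.3 CPM per kilobase (22.0 to 24.6, exact Poisson interval) and Eif4ebp1 second at 20.8 (19.6 to 22.1), with intervals that just overlap. Larp1 at 9.41 and Eif4ebp2 at 8.83 came next and overlapped, followed by Rps6kb1 at 5.40, Pdcd4 at 4.37, Eef2k at 0.685 and Eif4ebp3 at 0.119. In the control library Eif4ebp1 stood first at 65.5, then Eif4ebp2 at 24.5 and Rps6kb2 at 12.2, each clear of the next. Larp1 at 7.70 and Pdcd4 at 7.51 overlapped, Rps6kb1 was at 4.15, and Eef2k at 0.868 and Eif4ebp3 at 0.705 overlapped. The place of Rps6kb2 rests on its length. With GENCODE lengths, an alternative chosen after seeing the data, it was at 11.0 in the rheb BAD KO library (10.4 to 11.6), below Eif4ebp1 and above Larp1. In the control library it was then at 5.79 (5.36 to 6.24), below Larp1 and overlapping Pdcd4, which with its own GENCODE length was at 3.56 in the rheb BAD KO library and 6.12 in the control library (5.56 to 6.72).

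Among the targets and partners, Pdcd4 was lower and the others lay in between. Pdcd4 (ENSMUSG00000024975, chr19:53892231-53929861, plus strand) encodes a repressor that blocks the helicase eIF4A until S6 kinase marks it for destruction. It had 253 counts (11.2 CPM) in the rheb BAD KO library and 439 counts (19.2 CPM) in the control library, 1.72-fold lower (1.47 to 2.01), with 17.0% of all genes at a lower ratio. The lower end of that interval is under the 1.5-fold limit, so the call rests on the point value. Bbip1 on the opposite strand shares 185 of its 2556 exonic bases and had 358 and 383 counts in the rheb BAD KO and control libraries. Btrc and Fbxw11, which encode the ubiquitin ligase subunits that recognise phosphorylated Pdcd4, lay in between, with ratios of 1.17 (0.956 to 1.44) and 0.762 (0.673 to 0.862).

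Eef2k (ENSMUSG00000035064, chr7:120842831-120907450, plus strand) encodes the kinase that slows elongation by phosphorylating eEF2 and that S6 kinase restrains. It had 115 counts (5.08 CPM) in the rheb BAD KO library and 147 counts (6.43 CPM) in the control library, a ratio of 0.790 (0.614 to 1.02). At this depth its interval includes both equal levels and a difference past the 1.5-fold limit. Its substrate gene Eef2 had 26146 and 19644 counts in the rheb BAD KO and control libraries, a ratio of 1.34 (1.32 to 1.37). Relative to Eef2 within each library, Eef2k counts were 1.70-fold lower in the rheb BAD KO library (1.32 to 2.19).

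Larp1 (ENSMUSG00000037331, chr11:58009064-58062034, plus strand) had 1456 counts (64.3 CPM) in the rheb BAD KO library and 1202 counts (52.6 CPM) in the control library. Its ratio of 1.22 (1.13 to 1.32) lay within the 1.5-fold limit, and no exon is shared with another gene. Its paralog Larp1b had 435 counts in the rheb BAD KO library and 694 in the control library and was 1.58-fold lower (1.40 to 1.79). Within a library, Larp1 had 4.10 counts per kilobase for each one of Larp1b in the rheb BAD KO library and 2.12 in the control library.

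The partner of the 4E-BPs, the cap-binding factor Eif4e, was less different than they were. Eif4e had 849 counts (37.5 CPM) in the rheb BAD KO library and 1176 counts (51.4 CPM) in the control library, a ratio of 0.729 (0.667 to 0.797). Per kilobase there were 3.34 Eif4ebp1 counts for each Eif4e count in the rheb BAD KO library (3.04 to 3.66) and 7.65 in the control library (7.15 to 8.18). For Eif4ebp2 the value was 1.42 in the rheb BAD KO library and 2.86 in the control library. These proportions do not depend on the scaling between libraries, and they concern transcripts, not protein.

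**Figure D4:**
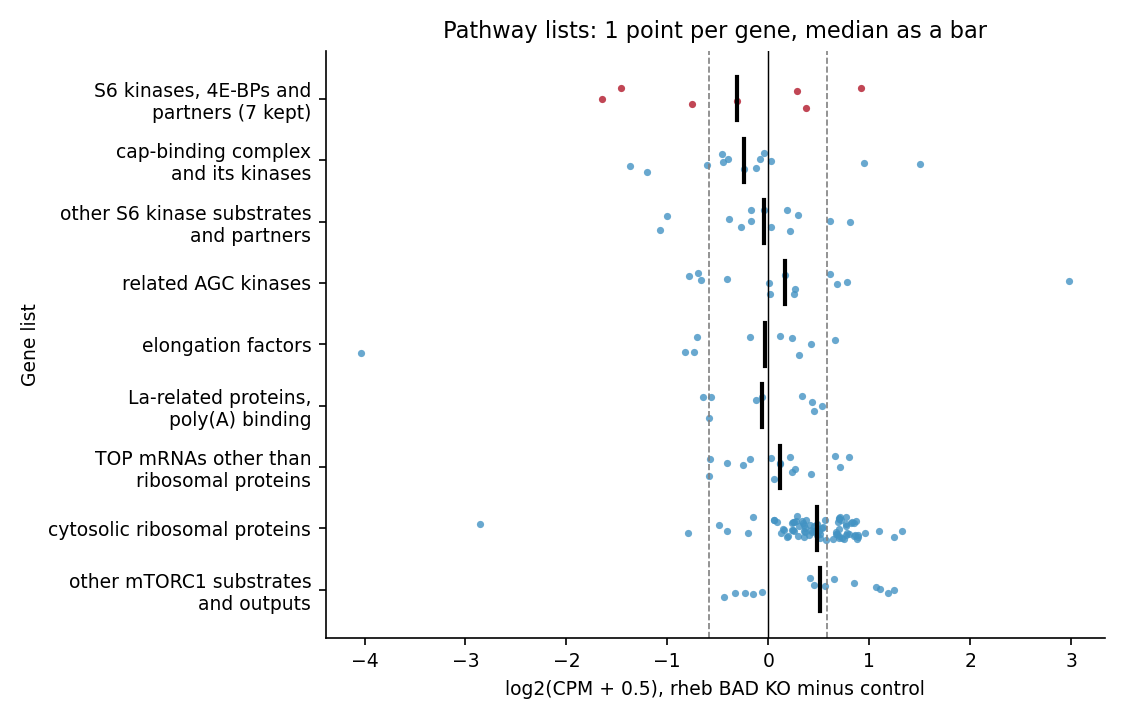
Each point is 1 gene, placed by log2(CPM + 0.5) in the rheb BAD KO library minus that in the control library, for the 7 members kept (red) and 8 lists of the same pathway (blue), with a black bar at each median and dashed lines at 1.5-fold. The ribosomal protein and other mTORC1 output lists have medians of 0.49 and 0.51, and the cap-binding list one of -0.24.

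The wider cap-binding machinery held calls in both directions. Of 13 genes of the cap-binding complex and its kinases, 2 were called higher, 3 were called lower and 8 lay in between. Their median log2 ratio was -0.24, beside -0.003 over all genes. The share called lower, 23.1%, was close to that of all genes. Mknk2, a kinase that phosphorylates eIF4E, had 3753 counts in the rheb BAD KO library and 9814 in the control library and was 2.59-fold lower (2.49 to 2.69). Eif4e3, a cap-binding paralog, was 2.33-fold lower (2.11 to 2.57), whereas Eif4g3, a scaffold, had 3053 counts in the rheb BAD KO library and 1081 in the control library and was 2.85-fold higher (2.66 to 3.06), and Eif4enif1, the eIF4E transporter, was 1.96-fold higher (1.75 to 2.19). The scaffold Eif4g1 and the helicase Eif4a1 had ratios of 0.725 and 0.970.

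Other substrates and partners of S6 kinase were mostly in between. Of 13, 2 were higher and 2 lower (15.4% each, beside 22.9% of all genes in each direction). Their median was -0.04, which turns positive under some scalings (0.08). Rps6, which encodes the ribosomal protein that names the kinases, had 6660 and 5466 counts in the rheb BAD KO and control libraries, a ratio of 1.23 (1.19 to 1.28). Poldip3, an S6 kinase partner on spliced mRNA, was 1.76-fold higher (1.59 to 1.96) and Rictor, a subunit of mTORC2, 1.54-fold higher (1.36 to 1.75). Irs1, the insulin receptor substrate on which S6 kinase feeds back, had 82 counts in the rheb BAD KO library and 178 in the control library, a ratio of 0.465 (0.354 to 0.608), and Gsk3b had a ratio of 0.472 (0.429 to 0.519).

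Elongation factors and TOP mRNAs, the classes tied to Eef2k and Larp1, did not move as one. Elongation factor genes here means a list chosen by name, which also holds Eef1e1 and Eef2kmt. Those genes carry the name but do not encode elongation factors, and both are among the genes counted as lower. Of 10 elongation factor genes, 1 was higher and 4 lower, with a median of -0.03 whose sign changes with the scaling. The largest difference was that of Eef1a2, the elongation factor isoform of muscle and neurons, with 51 counts in the rheb BAD KO library and 1018 in the control library. Skeletal muscle markers were also lower, and the part of muscle in the Eef1a2 difference was not tested. Eif5a, Eef1e1 and Eef2kmt had ratios of 0.601, 0.547 and 0.602, and Eef1d one of 1.59. Of 16 TOP mRNAs other than those of ribosomal proteins, 3 were higher, 2 lower and 11 in between. The shares were 18.8% higher and 12.5% lower, beside 22.9% of all genes in each direction. The median of these TOP mRNAs was 0.11, or -0.02 with total-count scaling. With total-count scaling 1 of these was higher, and 0 were lower under 2 other scalings (total counts without the 20 highest genes, or without mitochondrial genes and abundant pseudogenes). Rack1 was 1.74-fold, Tpt1 1.64-fold and Eef1d 1.59-fold higher, and Pabpc1, also counted among the poly(A)-binding proteins, had a ratio of 0.665 (0.632 to 0.700).

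Cytosolic ribosomal protein genes, the main TOP mRNAs, were called higher in 33 of 81 cases (40.7%, beside 22.9% of all genes) and lower in 2, with a median of 0.49 that stayed between 0.36 and 0.61 over 6 other scalings. Rps28 was 2.53-fold (2.35 to 2.72), Rpl38 2.38-fold (2.25 to 2.53) and Rpsa 2.14-fold higher. Rpl3l, a ribosomal protein of striated muscle, had 52 counts in the rheb BAD KO library and 453 in the control library, a ratio of 0.116. Muscle markers were also lower, and the part of muscle in the Rpl3l difference was not tested. Many ribosomal protein genes have processed pseudogene copies, so the assignment of their reads is uncertain. Of 14 other mTORC1 substrates and outputs, 6 were higher (42.9%) and none lower, with a median of 0.51 (0.38 to 0.63 over the scalings). Ppargc1a, the coactivator of mitochondrial biogenesis, was 2.38-fold higher (2.25 to 2.52), Srebf1, a lipogenic transcription factor, 2.27-fold (2.21 to 2.34), Tfeb, which drives lysosomal genes, 2.18-fold (1.94 to 2.46) and Ulk1, which starts autophagy, 2.11-fold (1.97 to 2.26). These shares describe the 2 libraries and were not tested.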

How the data were processed

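RNA of 3 mice per group was pooled before library preparation (TruSeq v2, which does not mark strand), per the labels' protocols. The deposited values are raw read counts per gene, made by the authors with Trimmomatic, HISAT2 and featureCounts on mm10, per the submitters' processing notes; for versions, annotation release and multi-mapping settings the sources used here give nothing. Other deposited columns used were the gene length and the exon coordinates, per the file headers. The length equalled the merged exons in all 54532 rows, as computed here. Gene types and the second set of lengths came from GENCODE M21, which matched 54495 genes. Where a symbol stood for several genes (102 symbols), the one with more counts was read.

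Counts were scaled with edgeR 4.0.16 TMM factors over genes with a read. Log2 ratios used CPM plus 0.5, which understates changes of low genes; ratios did not. No p-value was computed. The members, lists, motifs and rules were chosen with earlier results of these data known. In lists of up to 12 measured genes each called gene is named, and otherwise up to 4 called genes with the largest absolute log2 ratio; no gene is named for likeness of pattern, since 2 libraries hold a single difference. Other genes were named after their values were seen. Alternatives were DESeq2 1.42.0 size factors, total counts, total counts without subsets of genes, protein-coding genes, other filters, pseudocounts, thresholds and lengths. The size rule was also tested on counts simulated with known ratios and counting error only. The simulation held no variation between mice or pools, so it cannot show how the rule does on these libraries. Computation used R 4.3.3, Python 3.11.15, scipy 1.17.1 and matplotlib 3.10.9.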

Additional observations from a re-analysis of the deposited data

How the results depend on the processing

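Under 6 other scalings no member changed its call or its direction, and 42 of 48 ratios stayed within the counting interval. With total counts, which moved the median log2 ratio of all genes to -0.13, the ratio was 0.290 for Eif4ebp1, 0.329 for Eif4ebp2 and 1.12 for Larp1, and the median of all list genes 0.21 in place of 0.34. With total counts without mitochondrial genes and abundant pseudogenes, an alternative added after seeing the data, the median of all genes was 0.12, the 3 ratios 0.346, 0.392 and 1.33, and the list median 0.46; 3827 genes were then called higher and 2635 lower. At 2-fold 0 members were higher (Rps6kb2 no longer qualified) and 2 lower in place of 3 (Pdcd4 no longer qualified), 1442 genes were higher and 1516 lower, and 9 list genes were higher and 6 lower in place of 50 and 17. At 1.2-fold 3 members were higher and 3 lower, beside 4372 genes higher and 4438 lower of the 12973 that passed the filter. At that limit 88 list genes were higher and 28 lower. A filter of 10 CPM left 1611 genes higher and 1552 lower. Without gene length, Eif4ebp1, Eif4ebp2 and Eif4ebp3 made up 47.2%, 52.7% and 0.0912% of the 4E-BP counts in the rheb BAD KO library and 50.3%, 49.6% and 0.183% in the control library. Rps6kb1 and Rps6kb2 made up 45.1% and 54.9% of the S6 kinase counts in the rheb BAD KO library and 54.6% and 45.4% in the control library; with GENCODE lengths they made up 32.9% and 67.1% in the rheb BAD KO library and 41.7% and 58.3% in the control library. In a family of 2 genes the length taken cannot turn the direction of this difference, so its sameness across lengths is no check. Depth limits Eif4ebp3 and Eef2k most. Leaving out a library would empty its group. No paired analysis was possible because there is 1 pool per group.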

Other observations

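Kinases related to the S6 kinases differed in both directions. Of 13 measured relatives and regulators, 4 were higher (30.8%), 3 lower (23.1%) and 6 in between, beside 22.9% of all genes in each direction. Their median log2 ratio was 0.17 beside -0.003 over all genes. Sgk2, a serum- and glucocorticoid-regulated kinase, had 180 counts in the rheb BAD KO library and 13 in the control library, a ratio of 14.0 (7.97 to 26.8). Rps6ka5, which encodes the stress-activated kinase MSK1, had a ratio of 1.75 (1.49 to 2.06), whereas Rps6ka1 and Rps6ka3, of the RSK family that also phosphorylates ribosomal protein S6, had ratios of 0.566 (0.468 to 0.683) and 0.615 (0.558 to 0.677). Of 9 measured La-related and poly(A)-binding genes, none was higher and 2 were lower (Larp1b and Pabpc1). The share called lower, 22.2%, was close to the 22.9% of all genes. The ratio of Pabpc1, 0.665, lay at the 1.5-fold limit. With total counts without the 20 highest genes 1 of the 9 was higher and 1 lower, and with total counts without mitochondrial genes and abundant pseudogenes 1 was higher and 0 lower.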
